A study of Mus musculus with 35 samples.

Results

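The 9 genes described here encode the subunits of the AMPA receptor (Gria1 to Gria4) and of the kainate receptor (Grik1 to Grik5), chosen by their symbols from the 32544 genes counted in the series. All 9 were counted in every library used. Hippocampal RNA was sequenced from adult male C57BL/6JOlaHsd mice 24 hours or 2 weeks after kainic acid (KA mice) or vehicle (PBS mice) had been injected into the amygdala. Kainic acid triggers status epilepticus, which was curtailed with lorazepam, and spontaneous seizures follow after a silent interval. From a mouse came a library of RNA pulled down with an antibody against N6-methyladenosine (m6A library), a library of total RNA (input library), or both. The m6A libraries came from 5 KA and 3 PBS mice at 24 hours and from 6 KA and 5 PBS mice at 2 weeks. Input libraries of 100000 or more counts came from 3 KA mice and 1 PBS mouse at 24 hours and from 6 KA and 3 PBS mice at 2 weeks, and 13 mice had both kinds. The whole hippocampus was extracted, so fewer cells of a type and less RNA per cell cannot be told apart.

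AMPA receptors are tetramers of the Gria subunits and carry most of the fast excitatory current in the hippocampus. Gria2 is the subunit that, once its transcript has been edited by the adenosine deaminase Adarb1, makes the channel nearly impermeable to calcium. Kainate receptors are built from the subunits Grik1, Grik2 and Grik3, which form channels on their own, together with Grik4 and Grik5, which bind kainate with higher affinity and need a partner of the first kind. Kainic acid acts on both receptor families, and Grik2 and Grik4 are known for their place at the mossy fibre synapses of CA3. The m6A mark is laid on adenosines of a short consensus whose commonest form is GGACT, written in DNA letters, often near the stop codon.

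The GGACT sequence was searched on the sense strand of 1 canonical coding transcript a gene (GENCODE vM39). It occurred 54 times in the 9 transcripts, 25 times in coding sequence, 18 times in 3′ UTRs and 11 times in 5′ UTRs. Grik5 had 11 occurrences, or 2.31 per kb, a density above that of 93.5% of 21593 coding transcripts. Grik4 had 1 (0.160 per kb) and Gria3 had 2 (0.361 per kb). Gria1, Gria4 and Grik5 lay above the median density of 1.01 per kb and the other 6 members below it. GGACT is present in 88.9% of coding transcripts, and a match says nothing of methylation at that adenosine. The matches of Grik3 are printed because its m6A level stood above its input level in KA mice at 2 weeks, as described later. That of Grik4 is printed because it is the only one in its transcript. Each is given with 8 bases on either side and GGACT in capitals.
Grik3, coding, 1st site: cagaaacaGGACTctgctgcc
Grik3, coding, 2nd site: tggcttgcGGACTgattttga
Grik3, 3′ UTR, 3rd site: tccagcggGGACTtcaggccc
Grik3, 3′ UTR, 4th site: agaaatatGGACTctataaaa
Grik3, 3′ UTR, 5th site: agtgagttGGACTtagaatcc
Grik3, 3′ UTR, 6th site: gtcagcctGGACTgtcacagc
Grik3, 3′ UTR, 7th site: gtaccatgGGACTctaagagc
Grik4, coding, only site: gtttttgtGGACTctcagaca
In Grik3 the central adenosine of the 3rd site lay 21 bases after the last amino acid codon, and that of the 7th lay 5738 bases after it, so 5 of 7 sites were in the 3′ UTR. The Grik4 site lay in the coding sequence, 380 bases before its end.

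In the genome build of the files (mm10, per the submitters' processing notes), 2 members share a chromosome: Gria4 (chr9:4417893-4796234) and Grik4 (chr9:42518182-42945000). Gria2 is at chr3:80681450-80804227, Grik3 at chr4:125490259-125714173, Grik5 at chr7:25009849-25075694, Grik2 at chr10:49093680-49790161, Gria1 at chr11:57011571-57330244, Grik1 at chr16:87895901-88290863 and Gria3 at chrX:41400819-41678601 (RefSeq, GRCm38.p6).

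Levels are given as CPM (counts scaled to a common library total) adjusted by the trimmed mean of M values (TMM) with 1 set of factors over 32 libraries. The libraries held between 1652933 and 34564536 counts, and in them a member had between 24 (Grik4) and 49184 counts (Gria2). Another 3 input libraries, all at 24 hours, held 3171 to 34486 counts and were not used. KA mouse 8 at 24 hours stood apart in both assays: Gm10800 took 7.49% of its input counts and 8.90% of its m6A counts, against at most 1.45% in any other library. Mitochondrial genes took 17.5% of the m6A counts of KA mouse 6 at 2 weeks and 17.4% and 16.4% of the input and m6A counts of KA mouse 8, against at most 11.1% in any other library. The m6A column names start with a prefix (3, 4 or 5) whose meaning is not stated. At 24 hours prefix 3 holds KA mice 8, 67 and 98, prefix 4 holds KA mice 79 and 97 and PBS mice 71 and 73, and prefix 5 holds PBS mouse 1 alone. At 2 weeks prefix 3 holds KA mice 5, 6 and 42, prefix 4 holds PBS mice 50 and 78, and prefix 5 holds KA mice 7, 9 and 21 and PBS mice 2, 3 and 4. Of the input libraries used, the columns of KA mouse 8 at 24 hours and KA mice 6, 7 and 9 at 2 weeks start with Input. Those of all PBS mice and of the other KA mice do not, so this naming is partly confounded with KA. Excitatory neuron markers (Slc17a7, Camk2a, Neurod6 and Nrgn) were counted in every library, with a summed level between 738 and 4862 CPM.

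Within the input libraries of PBS mice at 2 weeks, AMPA subunits stood above kainate subunits in level per length of the canonical transcript. Gria2 had 115 CPM per kb (range 110 to 120, n = 3), followed by Gria1 with 86.8 (81.8 to 89.5), Gria3 with 46.3 (43.3 to 49.2) and Gria4 with 23.9 (20.5 to 26.9). Of the kainate subunits Grik2 was highest with 15.8 CPM per kb (13.2 to 19.8), then Grik5 with 9.53 (7.99 to 10.4), Grik1 with 6.56 (6.16 to 7.28) and Grik3 with 5.15 (4.32 to 6.13). Grik4 was lowest with 2.53 (2.48 to 2.60). No pair of neighbours in this order overlapped between the 3 mice, although the order depends on the length used. Per kb of the merged exons of all annotated coding transcripts of a gene, Gria1 stood first with 68.5 CPM per kb and Gria2 second with 57.4. By that length Grik2 (10.8) stood above Gria4 (7.54). In the m6A libraries of the 5 PBS mice at 2 weeks Gria1 (90.2 to 152 CPM per kb) and Gria2 (84.0 to 124) overlapped, as did Grik2 (9.00 to 22.4) and Grik5 (7.55 to 24.2).

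**Figure D1:**
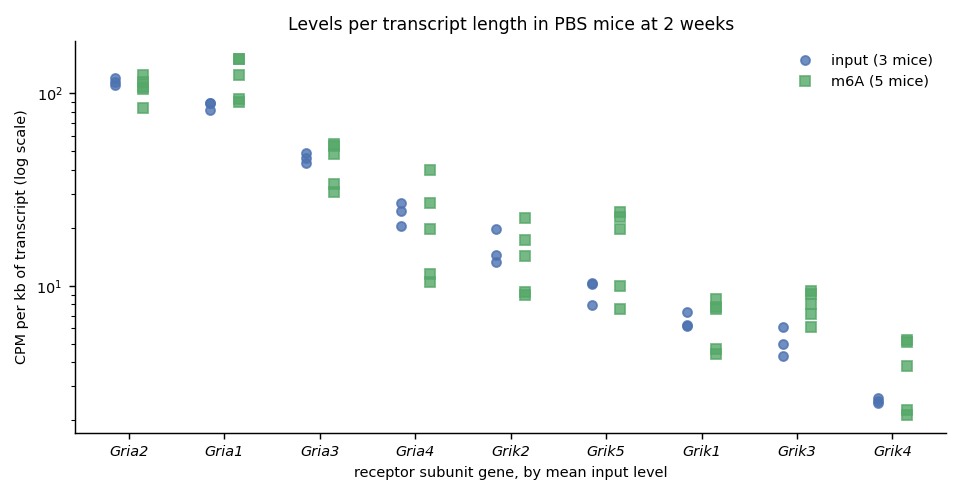
Level of each receptor subunit per kb of its canonical transcript (vertical axis, CPM per kb, log scale) in PBS mice at 2 weeks, with genes ordered by mean input level and 1 point per library (circles, input, n = 3; squares, m6A, n = 5). Input levels fall from 115 CPM per kb for Gria2 to 2.53 for Grik4 without overlap of neighbours, and the m6A points spread more widely.

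Gria2 made up 40.3% to 44.0% of the AMPA subunit signal per length in the input libraries of PBS mice at 2 weeks, and 36.5% to 43.8% in KA mice (n = 6). At 24 hours it made up 38.7% in the PBS mouse and 35.4% to 38.7% in KA mice. Gria4 took 7.57% to 9.89% in PBS mice at 2 weeks and 3.88% to 8.48% in KA mice. Of the kainate signal, Grik2 took 35.5% to 45.8% in PBS mice at 2 weeks and 25.4% to 37.7% in KA mice, whereas Grik5 took 20.8% to 27.5% in PBS mice and 27.3% to 40.7% in KA mice. For Grik2 and for Grik5 the 2 ranges overlapped at their ends.

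At 24 hours, 8 of 9 members had a lower mean m6A level in KA mice, and none passed an adjusted P of 0.05 (edgeR quasi-likelihood test; 0.00607% of 16470 genes passed, and 2 members had an unadjusted P under 0.05 against 5.31% of genes). Gria1, which with Gria2 forms most AMPA receptors of CA1 pyramidal cells, had m6A levels of 460, 496, 544 and 551 CPM in KA mice 98, 79, 67 and 97 and 177 in KA mouse 8. In PBS mice 1, 73 and 71 it had 674, 736 and 821 CPM. All KA mice lay below all PBS mice, and the log2 difference came to -0.72 (SE 0.32, adjusted P = 0.925 by edgeR). Gria2 had 458, 789, 829, 891 and 896 CPM in KA mice 8, 67, 97, 79 and 98 and 960, 1066 and 1414 in PBS mice 73, 71 and 1. Its groups did not overlap either, and the log2 difference was -0.55 (SE 0.29, adjusted P = 0.983 by edgeR). Gria3, which pairs with Gria2 in many hippocampal receptors, had 114 to 217 CPM in KA mice and 167, 175 and 281 in PBS mice. Gria4, a subunit best known from early development and from interneurons, had 44.7 to 131 CPM in KA mice and 67.8, 82.4 and 104 in PBS mice. Both overlapped, with log2 fold changes of -0.37 (SE 0.29) and -0.05 (SE 0.39), the latter 0.01 when libraries were scaled by size alone. The median over the 9 members was -0.49, beside 0.08 over all genes tested.

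Among kainate subunits at 24 hours, Grik2, the main channel-forming subunit of the hippocampus, had m6A levels of 53.2, 55.4, 63.9, 69.8 and 72.2 CPM in KA mice 8, 67, 79, 97 and 98. In PBS mice 73, 71 and 1 it had 81.3, 88.3 and 138 CPM. The groups did not overlap, and the log2 fold change was -0.66 (SE 0.26, adjusted P = 0.822 by edgeR). Grik1, a subunit with high levels in interneurons, had 10.8 to 17.2 CPM in KA mice and 17.9, 19.4 and 20.6 in PBS mice, which also did not overlap (log2 fold change -0.37, SE 0.23). In all, 4 of 9 members had every KA library below every PBS library, as did 2.06% of genes tested, and no member had every KA library above (2.33% of genes). Grik3, which forms receptors of low glutamate sensitivity, had 75.2 to 99.1 CPM in 4 KA mice and 166 in KA mouse 8, against 74.6, 76.0 and 127 in PBS mice. KA over PBS came to 0.28 on the log2 scale (SE 0.38) and became -0.08 without KA mouse 8. The high-affinity subunit Grik4 differed by prefix, with 24.6 and 24.8 CPM in the KA mice of prefix 4 and 13.2 to 18.0 in those of prefix 3. In PBS mice Grik4 had 30.2 and 37.6 CPM under prefix 4 and 16.9 under prefix 5. Grik5 had 114 and 139 CPM in the PBS mice of prefix 4 and 35.7 in that of prefix 5. In KA mice it had 60.2 and 76.8 CPM under prefix 4, inside the 18.4 to 92.8 CPM of prefix 3. The log2 fold changes of Grik4 and Grik5 were -0.49 (SE 0.33) and -0.62 (SE 0.48).

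Mouse 8 and the prefix were each set aside. Without KA mouse 8 the log2 fold change was -0.54 for Gria1, -0.44 for Gria2 and -0.66 for Grik2 (adjusted P = 0.464, 0.681 and 0.499 by edgeR). Within prefix 4, with 2 KA and 2 PBS mice, all 9 values were negative, with -0.57 for Gria1 (adjusted P = 0.0976 by edgeR), -0.23 for Gria2 (0.444), -0.34 for Grik2 (0.253) and -0.88 for Grik5 (0.0608). Of 16903 genes this fit called 248 higher and 108 lower, and 3265 had an unadjusted P under 0.05. At 24 hours only prefix 4 holds both KA and PBS mice. A fit with the prefix as a block therefore rests on the same mice and is no separate check. It gave the same 4 members -0.57, -0.23, -0.34 and -0.88, and Gria1, Gria2 and Grik2 were nearer 0 than in the main fit. Only voom with sample quality weights put a member past the threshold, Gria1 at -0.64 (adjusted P = 0.0229), and it called 761 genes higher and 359 lower where DESeq2 called 142 and 14 and edgeR 1 and 0. In the m6A libraries at 24 hours excitatory neuron markers summed to 738 to 3244 CPM in KA mice (lowest in mouse 8) and 1991 to 4591 in PBS mice, and 5 astrocyte markers to 573 to 2910 and 913 to 1326 CPM. The excitatory sums differed by prefix, with 4548 and 4591 CPM in the PBS mice of prefix 4 and 1991 in that of prefix 5. In KA mice they were 2458 and 2626 CPM under prefix 4 and 738, 2522 and 3244 under prefix 3. Dentate granule cell markers summed to 36.7 to 201 CPM in KA mice and 101 to 300 in PBS mice, and their median log2 fold change was -1.40, with 2 of 3 lower at an unadjusted P under 0.05, beside -0.65 for CA1, -0.57 for CA3 and -0.43 for excitatory neuron markers. Under prefix 4 the dentate sums were 163 and 201 CPM in KA mice and 277 and 300 in PBS mice. They were 36.7 to 63.1 CPM in the KA mice of prefix 3 and 101 in the PBS mouse of prefix 5. No marker was at 0, and their part in the members' values was not tested.

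**Figure D2:**
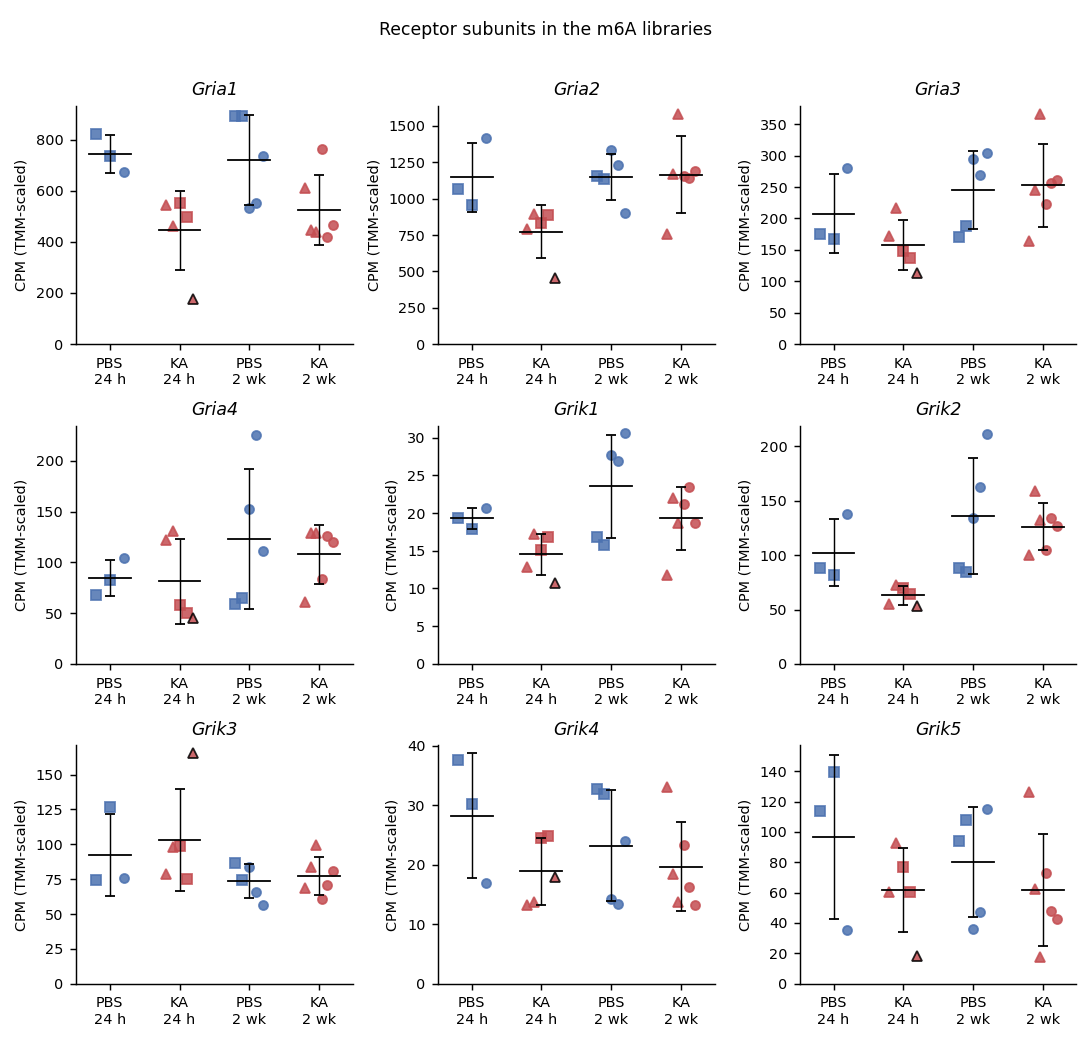
TMM-scaled CPM (vertical axes, from 0) of each receptor subunit in the m6A libraries, 1 point per mouse, PBS mice in blue and KA mice in red, with mean and SD. Triangles, squares and circles are column prefixes 3, 4 and 5, and KA mouse 8 is outlined in black; at 24 hours the KA points of Gria1, Gria2, Grik1 and Grik2 all lie below the PBS points.

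At 2 weeks no member differed past the threshold in the m6A libraries, and all 9 overlapped between KA and PBS mice. Of 16157 genes, 0 passed by edgeR (0%), 2 by voom and 15 by DESeq2, none of them a member, and 5.01% had an unadjusted P under 0.05, as did 1 member, Gria1. It had 420 to 763 CPM in KA mice (median 455) and 532, 550, 735, 892 and 893 CPM in PBS mice, with both highest values in prefix 4. KA over PBS came to -0.45 on the log2 scale (SE 0.21, adjusted P = 0.875 by edgeR), and -0.15 within prefix 5, where 3 KA mice met 3 PBS mice. Gria2 had 754 to 1583 CPM in KA mice (median 1163) and 904 to 1333 in PBS mice, a log2 fold change of 0.04 (SE 0.21). The other 7 members had log2 fold changes between -0.38 (Grik5) and 0.10 (Grik3). With the prefix as a block Gria4 moved from -0.17 to -0.58, Grik2 from -0.10 to -0.49 and Grik1 from -0.27 to -0.44, while Gria1 moved to -0.17 (adjusted P = 1.00 for each by edgeR). Across all genes, 0.198% had every KA library below and 0.433% every KA library above the PBS libraries, against 0 members in each direction. The change of the KA effect from 24 hours to 2 weeks was positive for 7 members, with 0.59 for Gria2 (SE 0.33) and 0.57 for Grik2 (SE 0.37), but 0 passed by edgeR (adjusted P = 1.00 for each), and 0 had an unadjusted P under 0.05 (0.00573% and 2.45% of 17440 genes). DESeq2 and voom called 0 members in it too.

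In the input libraries at 24 hours, AMPA subunits were lower and Grik4 and Grik5 higher in KA mice on average, but the comparison rests on 1 PBS mouse and none of the 9 passed (edgeR; 0% of 17644 genes passed, 9.23% had an unadjusted P under 0.05, and so did 4 members). The lone PBS library was assumed to vary as the other groups do. Gria1 had 554, 484 and 175 CPM in KA mice 67, 98 and 8 and 761 in PBS mouse 1 (log2 fold change -0.86, SE 0.39, adjusted P = 0.519). Gria2 had 813, 918 and 373 CPM in these KA mice and 1307 in PBS mouse 1 (-0.84, SE 0.31, adjusted P = 0.446). Gria3 had 158, 211 and 98.0 CPM, with 260 in PBS mouse 1 (-0.67, SE 0.26, adjusted P = 0.469). All KA libraries were below the PBS library for 5 members (22.1% of genes), and KA mouse 8 was the lowest of the 3 for each of them. Grik4 was the 1 member with all KA libraries above it (15.3% of genes), with 20.2, 25.4 and 19.1 CPM against 13.9 (0.74, SE 0.30, adjusted P = 0.494). Grik5, the other high-affinity subunit, had 71.9, 90.1 and 25.9 CPM in KA mice and 37.5 in PBS mouse 1 (0.77, SE 0.44, adjusted P = 0.634). Grik3 was also higher on average, with 74.8, 127 and 92.4 CPM in KA mice 67, 98 and 8 and 77.2 in PBS mouse 1 (0.46, SE 0.32). Without KA mouse 8 the values were -0.57 for Gria1, -0.62 for Gria2, -0.52 for Gria3, 0.68 for Grik4 and 1.08 for Grik5. With TMM scaling the median of all genes in this comparison was 0.27 on the log2 scale, and it was -0.04 with scaling by library size. The members kept their signs under both. DESeq2 and voom called 0 members. Lars2 took 23.1% and 21.8% of the counts of KA mice 67 and 98, 0.993% of those of KA mouse 8 and 4.29% of those of PBS mouse 1, and its part in these values was not tested. The sum of 6 inhibitory neuron markers was 369 to 421 CPM in KA mice and 549 in PBS mouse 1, and that of 5 oligodendrocyte markers 700 to 1986 and 2147 CPM. Excitatory neuron markers had 745 CPM in KA mouse 8, 2275 and 2992 in the other KA mice and 2117 in PBS mouse 1. Astrocyte markers had 367 CPM in KA mouse 8, 1747 and 2382 in the other KA mice and 688 in PBS mouse 1. The median log2 fold change was 0.93 over astrocyte, 1.06 over microglia and 1.23 over endothelial cell markers, and no marker was at 0. The part of these cells in the values was not tested.

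In the input libraries at 2 weeks 5 of the 9 genes were lower and 2 higher in KA mice at an unadjusted P under 0.05, against 14.1% of 13752 genes, yet 0 members and 0% of genes passed the adjusted threshold by edgeR. Every KA library lay below every PBS library for 4 members (4.29% of genes) and above for 1 (3.22% of genes). Gria4 had the largest difference, with 49.3 to 115 CPM in KA mice (median 88.6) and 116, 138 and 152 in PBS mice 2, 4 and 3. The groups did not overlap, although KA mouse 5 came close to PBS mouse 2, and the log2 fold change was -0.66 (SE 0.22, adjusted P = 0.270 by edgeR). Gria2 had 884 to 1130 CPM in KA mice (median 1001) and 1185, 1234 and 1287 in PBS mice, without overlap (-0.30, SE 0.14, adjusted P = 0.352). Gria3 had 177 to 232 CPM in KA mice (median 211) and 240, 257 and 273 in PBS mice, also without overlap (-0.28, SE 0.13, adjusted P = 0.350). Gria1 did not follow the other AMPA subunits, with 391 to 707 CPM in KA mice (median 523) on both sides of the 482, 526 and 528 CPM of PBS mice. KA over PBS came to 0.07 on the log2 scale, with a 95% interval from -0.29 to 0.43.

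The kainate subunits were split in the same libraries. Grik1 had 14.6 to 21.8 CPM in KA mice (median 17.2) and 22.0, 22.3 and 26.0 in PBS mice, so that all KA mice lay below all PBS mice (-0.40, SE 0.17, adjusted P = 0.324 by edgeR). Grik2 had 102 to 138 CPM in KA mice (median 110) and 125, 137 and 187 in PBS mice, and only KA mouse 5 reached into the PBS range (-0.38, SE 0.16, adjusted P = 0.317). Grik4 had 17.3 to 32.7 CPM in KA mice (median 21.8) and 15.5, 15.8 and 16.2 in PBS mice. All 6 KA mice lay above all 3 PBS mice, KA mouse 42 far above (0.52, SE 0.19, adjusted P = 0.296). Grik5 had 47.8 to 85.7 CPM in KA mice (median 64.3) and 38.0, 48.7 and 49.2 in PBS mice, with KA mouse 7 inside the PBS range (0.52, SE 0.19, adjusted P = 0.282). Grik3 overlapped, with 42.2 to 66.8 CPM in KA mice and 40.1, 46.3 and 56.7 in PBS mice (0.11, 95% interval -0.25 to 0.47). Voom with quality weights called Grik5 (0.66, adjusted P = 0.0452) and no other member, and DESeq2 called none. Over all genes voom called 191 higher and 151 lower of 13752, and DESeq2 72 and 41 of 13751. The median over the 9 members was -0.28 and over all genes 0.02.

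**Figure D3:**
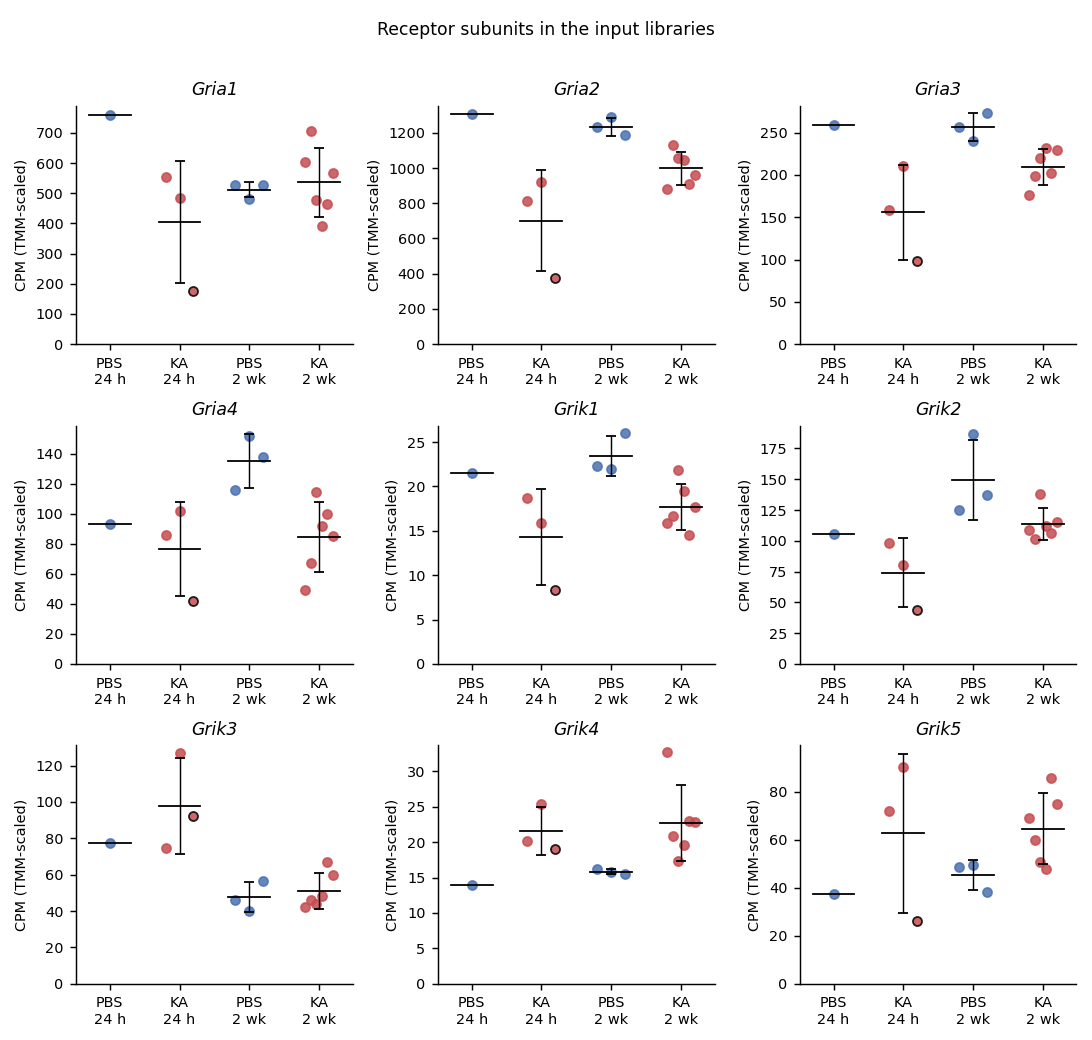
TMM-scaled CPM (vertical axes, from 0) of each receptor subunit in the input libraries of 100000 or more counts, 1 point per mouse, PBS mice in blue and KA mice in red, with mean and SD where n is above 1. KA mouse 8 is outlined in black; at 2 weeks the KA points of Gria2, Gria3, Gria4 and Grik1 lie below and those of Grik4 above all PBS points.

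Other measures were taken from the input libraries at 2 weeks. The summed level of the 5 astrocyte markers (Aqp4, Gja1, Aldh1l1, Slc1a3 and Gfap) was 1242 to 3795 CPM in the input libraries of KA mice and 751 to 1049 in those of PBS mice, without overlap. That of 3 thalamus markers (Tcf7l2, Prkcd and Rora) was 69.7 to 113 CPM in KA mice and 123 to 187 in PBS mice, again without overlap, and 3 dentate granule cell markers had 60.6 to 188 and 64.3 to 79.9 CPM. None of these markers was at 0 in any of these libraries. Excitatory neuron markers had 1433 to 3706 CPM in KA mice and 1248 to 2131 in PBS mice. The median log2 fold change was 0.78 over astrocyte, -0.16 over thalamus, 0.84 over dentate granule cell and 0.55 over excitatory neuron markers. Lars2 took 2.35% to 25.2% of counts in KA mice and 4.72% to 10.0% in PBS mice. By falling Lars2 share, KA mice 42, 21, 9, 6, 5 and 7 had 49.3, 67.3, 100, 85.5, 115 and 91.7 CPM of Gria4. The part of these measures in the members' values was not tested.

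**Figure D4:**
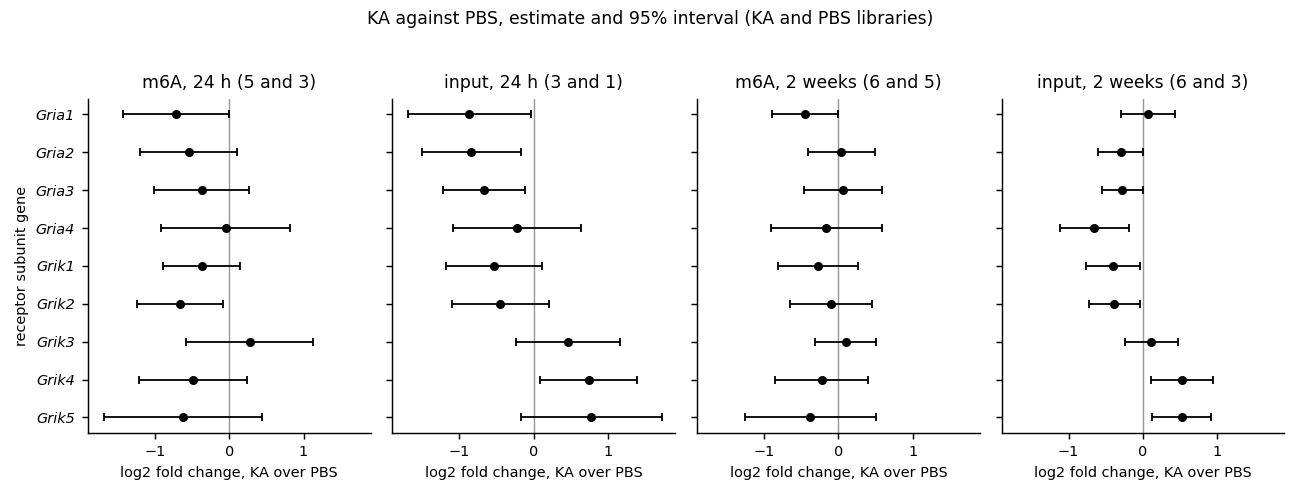
Log2 fold change of KA over PBS mice with its 95% interval from the edgeR fit (horizontal axis) for each receptor subunit, in m6A and input libraries at 24 hours and 2 weeks, with the numbers of KA and PBS libraries above each panel. Values run from -0.86 (Gria1, input, 24 hours) to 0.77 (Grik5, input, 24 hours), and none passed an adjusted P of 0.05.

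Levels in m6A and input libraries were then compared within mice, which asks whether the pulled-down fraction held more of a transcript than total RNA did. By the labels the pull-down was made for poly(A) RNA and the input was total RNA, so m6A and this selection cannot be told apart in the ratio. In the KA mice at 2 weeks 1 of 9 members was called by edgeR, beside 7.15% of 20567 genes. An unadjusted P under 0.05 was found for 2 members, beside 22.4% of genes. With such shares 1 call does not set the members apart. The member called was Grik3 (log2 ratio 0.58, SE 0.15, adjusted P = 0.0252 by edgeR with the mouse as a block). Its m6A and input levels were 69.0 and 42.2 CPM in mouse 42, 83.9 and 43.6 in mouse 5, 99.6 and 60.0 in mouse 6, 61.1 and 46.3 in mouse 21, 70.5 and 48.1 in mouse 7, and 81.0 and 66.8 in mouse 9. All 6 mice had more in the m6A library, as they did for Gria4 (0.33, SE 0.13, adjusted P = 0.117) and for 8.80% of genes, and no member was lower in all 6 (4.83% of genes). The Grik3 call was lost when KA mouse 5, 7 or 9 was left out (adjusted P = 0.101, 0.0737 and 0.0615), without the mouse block (0.183), within the mice of prefix 5 (0.343) and within the mice whose input columns do not start with Input (0.157). The other 7 members had log2 ratios from -0.28 (Grik4) to 0.22 (Gria3). Grik5 varied most between mice, from -2.08 in mouse 6 to 0.87, and its ratio of -0.28 became 0.06 without mouse 6. The m6A library of mouse 6 had the high mitochondrial share given above and 966 CPM of endothelial cell markers, against 218 to 344 in those of the other KA mice at 2 weeks.

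In PBS mice at 2 weeks Grik3 had m6A and input levels of 84.0 and 46.3 CPM in mouse 2, 66.1 and 40.1 in mouse 3, and 56.7 in both libraries of mouse 4. Its log2 ratio was 0.51 (SE 0.21, adjusted P = 0.233 by edgeR), and 0 members passed, against 1.97% of genes; Grik3 alone had an unadjusted P under 0.05 (16.5% of genes). DESeq2 called 0 members as well and voom 2, Gria4 and Grik3. Of 20567 genes voom called 1419 higher and 2224 lower, and DESeq2 615 and 354. With such counts the 2 voom calls do not set the members apart. Gria1, Gria3 and Grik1 were higher in the m6A library of all 3 mice (20.0% of genes, any excess counted), Grik3 was higher in mice 2 and 3 and level in mouse 4, and no member was lower in all 3 (16.2% of genes). The ratio in KA mice differed from that in PBS mice by 0.07 for Grik3 (95% interval -0.48 to 0.62). For the 9 members this difference ran from -0.62 (Grik5, SE 0.63) to 0.31 (Gria2, SE 0.23), with 0 passing by edgeR, DESeq2 or voom, and 0 having an unadjusted P under 0.05 (0.00486% and 4.21% of genes).

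At 24 hours the ratio could be taken in 3 KA mice. Grik4 was lower in the m6A library of each, with 13.2 and 20.2 CPM in mouse 67, 13.8 and 25.4 in mouse 98, and 18.0 and 19.1 in mouse 8. In the only PBS mouse with both libraries at 24 hours it was higher in the m6A library, with 16.9 and 13.9 CPM. Its log2 ratio was -0.54 (SE 0.25, adjusted P = 0.576 by edgeR), and 0 members passed, against 0.199% of genes; Grik4 alone had an unadjusted P under 0.05 (8.36% of genes), and DESeq2 and voom called 0. Grik4 was the 1 member lower in all 3 (14.7% of genes), and Gria3 and Gria4 were higher in all 3 (14.7% of genes). Grik3 had ratios of 0.07, -0.37 and 0.84 in mice 67, 98 and 8, so that its excess in the m6A fraction was seen in some of these mice and not in all. Scaling matters for ratios of this kind: the median log2 ratio of all genes was 0.00 in PBS mice at 2 weeks, 0.03 in KA mice at 2 weeks and -0.08 in KA mice at 24 hours with TMM scaling, and 0.19 in each with scaling by library size. The Grik3 ratio in KA mice at 2 weeks, 0.58 with TMM scaling, was 0.75 with library size (adjusted P = 0.00271).

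**Figure D5:**
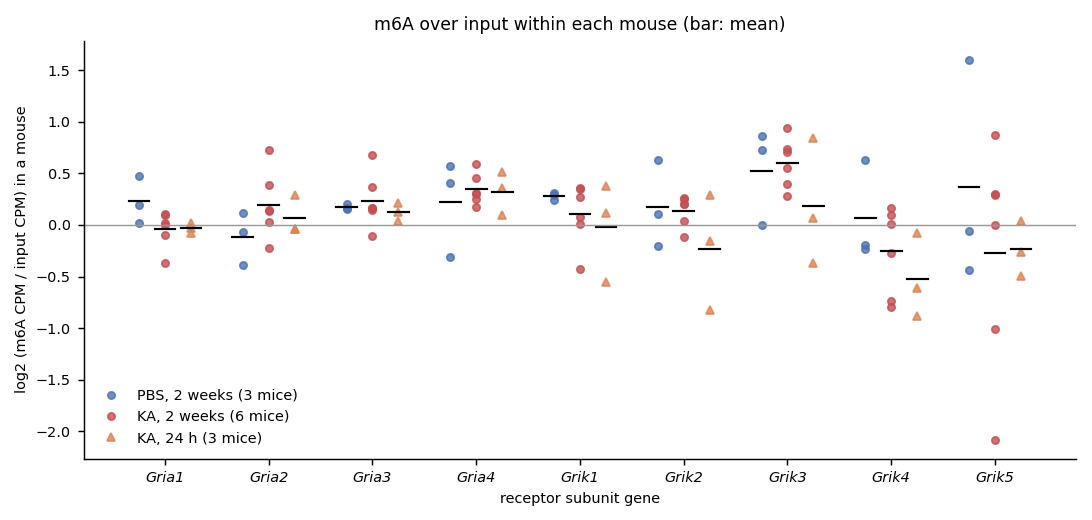
Log2 ratio of m6A CPM over input CPM within a mouse (vertical axis) for each receptor subunit, with 1 point per mouse (blue circles, 3 PBS mice at 2 weeks; red circles, 6 KA mice at 2 weeks; orange triangles, 3 KA mice at 24 hours) and the group mean as a bar. All 6 KA points of Grik3 and of Gria4 at 2 weeks lie above 0, and Grik5 has the widest spread, from -2.08 to 0.87 in these mice.

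The genes that assemble, anchor or edit these receptors were measured in the same fits: 16 AMPA receptor auxiliary subunits such as the stargazin family (Cacng2 and its relatives), 4 kainate receptor auxiliary subunits and organisers (Neto1, Neto2, C1ql2 and C1ql3, of which C1ql2 is also a dentate granule cell marker here), 9 anchoring and trafficking genes, and the 3 adenosine deaminases Adar, Adarb1 and Adarb2. All 32 were tested in each comparison. None passed in any comparison of KA with PBS mice by edgeR. In the input libraries at 2 weeks 8 were higher and 2 lower at an unadjusted P under 0.05, beside 14.1% of all genes, and the median log2 fold change was 0.55 for the anchoring and trafficking genes, 0.14 for AMPA auxiliary subunits, 0.07 for the kainate group and -0.04 for the deaminases, beside 0.02 over all genes. In the m6A libraries at 24 hours the medians were -0.17, -0.22, -0.31 and -0.01, beside 0.08, with 2 higher and 2 lower at an unadjusted P under 0.05, beside 5.31% of all genes. Grip2, a scaffold protein that binds the tails of Gria2 and Gria3, was the only 1 of the 32 called within mice, and it was called lower in the m6A library. Its log2 ratio was -1.71 in KA mice (SE 0.18, adjusted P = 3.59e-05 by edgeR) and -1.61 in PBS mice (SE 0.25, adjusted P = 0.00516) at 2 weeks. It had 448 to 935 CPM in the m6A and 1319 to 3239 CPM in the input libraries of KA mice at 2 weeks, which did not overlap. Grip1 had 20.0 to 35.9 CPM in the same input libraries. Whether reads of an overlapping gene were counted for Grip2 was not tested, and m6A and poly(A) selection cannot be told apart in its ratio.

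Over the 19 m6A libraries and 17440 genes, genes among those whose log2 CPM followed Gria2 most closely were Pds5b (Pearson r = 0.93) and Tab3 (0.92). For Grik2 the closest were Tia1 (0.95), Rbl2 (0.95) and Tatdn3 (0.94). These are descriptions over libraries that share prefixes and differ in depth. The libraries of each prefix pool different treatments or times, so differences between these groups enter correlations within a prefix and their permutation tests. Among the members themselves, Gria3 and Grik2 were the 1 pair of 36 with r above 0.7 in every prefix set. By exact permutation tests, r was 0.75 in prefix 3 (n = 6, P = 0.0847, adjusted 0.277), 0.93 in prefix 4 (n = 6, P = 0.0167, adjusted 0.180) and 0.78 in prefix 5 (n = 7, P = 0.0496, adjusted 0.214). Spearman's rho was 0.77, 0.83 and 0.68 (exact permutation P = 0.103, 0.0583 and 0.110, adjusted 0.408 for each). Without the 2 libraries farthest from the median of Gria3, r was 0.58, 0.18 and 0.04, so the relation rests on those libraries in prefixes 4 and 5. Over 108 such relations 15 pairs were positive and 4 negative in all 3 sets, and none passed Benjamini-Hochberg adjustment of the 2-sided exact permutation tests (smallest adjusted P = 0.0900 for r and 0.15 for rho).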

How the data were processed

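The authors deposited raw counts of reads per gene symbol, in 15 files with a column for each of 4 lanes (mm10, per the submitters' processing notes). For the aligner, the counter and the use of strand, nothing was given in the sources used here. Reads of overlapping genes cannot be told apart. Lanes were summed. The column names of 8 libraries state the assay, that of 27 was read from the prefix, and 8 lane columns of no labelled library were not used. Input libraries under 100000 counts were left out. Counts were tested with edgeR 4.0.16 (R 4.3.3; TMM, filterByExpr, quasi-likelihood test, Benjamini-Hochberg over all genes tested, threshold 0.05). Groups at 1 time were compared in m6A libraries of that time, and the change between times in all of them. The input libraries were compared at 24 hours in a fit of all 13 and at 2 weeks in the libraries of that time. m6A and input libraries were compared within mice with the mouse as a block, since by the labels both came from the same mouse. Deviations from the group means correlated between the 2 libraries of a mouse by -0.0042 to 0.87 over 12 mice, above 0.1 in 10. P values of KA against PBS mice measure the spread between mice, and those of m6A against input the spread of that ratio between mice. For the input libraries at 24 hours the spread was taken over all groups, as a single PBS library has none. Alternatives were DESeq2 1.42.0, limma 3.58.1 (voom with quality weights), dropping the filter, scaling by library size, the column prefix as a block and leaving out each library. The fits were tested on simulated data. Markers and pathway genes came from fixed lists, all 9 members were named, and of the pathway lists up to 4 genes past the threshold in a comparison. Members and lists were chosen with earlier results of these data known. Promoter and protein sequences were not used here. A marker gene and a gene close to Gria2 are not reported here, and the marker was left out of its summed level.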

Additional observations from a re-analysis of the deposited data

Results flagged for a closer look

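A library was set apart in 5 of 45 groups of 4 to 10 libraries, where the highest or lowest value lay farther from its nearest neighbour than Dixon's 95% critical value allows. Chance sets apart about 1 in 20 groups. In the m6A libraries at 24 hours KA mouse 8 was apart for 3 members: Gria1 at 177 CPM (other KA mice 460 to 551), Gria2 at 458 CPM (789 to 896) and Grik3 at 166 CPM (75.2 to 99.1). In the input libraries at 2 weeks Grik2 was at 138 CPM in KA mouse 5 (other KA mice 102 to 115), and Grik4 was at 32.7 CPM in KA mouse 42 (17.3 to 22.9).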

How the results depend on the processing

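Over 128 alternatives to the 9 comparisons, 1152 values of members were recomputed. Of these 1054 kept their direction and their side of the threshold, 84 changed sign, 8 moved past the threshold and 6 no longer passed it. The changes of sign fell in 37 of 81 member comparisons, in 0 of which the main edgeR fit gave an unadjusted P under 0.05, and the largest value among the 37 was -0.62 in size (Grik5, ratio of KA over PBS mice). The number of members past the threshold, 0 in every comparison but 1, was 1 with voom in m6A libraries at 24 hours (Gria1) and in input libraries at 2 weeks (Grik5). Within PBS mice at 2 weeks it was 1 with scaling by library size (Grik3) and 2 with voom. Of 20567 genes, scaling by library size called 1260 higher and 104 lower there, and voom 1419 and 2224. Within KA mice at 2 weeks, where Grik3 alone passed, the number of members was 3 with scaling by library size (Gria3, Gria4 and Grik3), 2 with voom, 0 with the mice of prefix 5 alone, 0 with the mice whose input columns do not start with Input, and 0 to 1 with a mouse left out. In these KA mice scaling by library size called 2270 of 20567 genes higher and 170 lower, and voom 2487 and 3759. Without the mouse block, that is without pairing the libraries of a mouse, the number of members was 0 in these KA mice (Grik3 0.58, adjusted P = 0.183 by edgeR), and the block changed no other call. The restrictions to a column prefix or name were chosen after the data were seen, and the cause of these differences was not tested.

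The values of members that changed sign follow as log2 fold changes or log2 ratios. With the column prefix as a block the values were Grik3 -0.20 in m6A libraries at 24 hours and Gria2 -0.0099, Gria3 -0.24 and Grik4 0.017 in m6A libraries at 2 weeks. With scaling by library size the values were Gria4 0.0065 in m6A libraries at 24 hours, Gria2 -0.050 and Gria3 -0.026 in m6A libraries at 2 weeks, Gria2 0.10 within PBS mice at 2 weeks, Gria1 0.12 within KA mice at 2 weeks and Gria1 0.21, Grik1 0.23, Grik2 0.018 and Grik5 0.0040 within KA mice at 24 hours. Without the filter on low counts the values were Gria1 0.0092 within KA mice at 2 weeks and Grik2 0.016 in the ratio of KA over PBS mice. Without the mouse block the values were Gria2 -0.025 within KA mice at 24 hours. With prefix 4 alone the values were Grik3 -0.20 in m6A libraries at 24 hours. With prefix 5 alone the values were Gria3 -0.23 and Grik4 0.041 in m6A libraries at 2 weeks. With input columns not starting with Input the values were Grik3 -0.10 in input libraries at 2 weeks. With the mice of prefix 5 alone the values were Gria1 0.039 within KA mice at 2 weeks and Grik1 0.067, Grik2 0.034 and Grik3 -0.092 in the ratio of KA over PBS mice. With the mice whose input columns do not start with Input the values were Gria2 -0.092, Gria3 -0.0008, Grik1 -0.088, Grik2 -0.033, Grik4 0.014 and Grik5 0.42 within KA mice at 2 weeks, Gria2 -0.088 and Grik3 -0.20 within KA mice at 24 hours and Gria3 -0.12 and Grik5 0.11 in the ratio of KA over PBS mice. With voom the values were Gria2 -0.057, Gria3 -0.0072, Grik2 0.033 and Grik4 0.019 in m6A libraries at 2 weeks, Grik4 -0.15 and Grik5 -0.10 within PBS mice at 2 weeks, Gria2 -0.054 and Grik3 -0.069 within KA mice at 24 hours and Gria4 -0.10, Grik2 0.16 and Grik3 -0.15 in the ratio of KA over PBS mice.

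With 1 library or mouse left out in turn the ranges were Gria4 -0.30 to 0.16 and Grik3 -0.076 to 0.54 in m6A libraries at 24 hours. They were Gria2 -0.10 to 0.15, Gria3 -0.094 to 0.17, Gria4 -0.35 to 0.17, Grik2 -0.23 to 0.11 and Grik3 -0.016 to 0.16 in m6A libraries at 2 weeks. They ran as Gria4 -0.34 to 0.25, Grik1 -0.017 to 0.25, Grik3 -0.45 to 0.20 and Grik5 -0.10 to 0.63 in the change of the KA effect between times. The range was Gria1 -0.018 to 0.14 in input libraries at 2 weeks. Ranges were Gria2 -0.26 to 0.019, Grik2 -0.051 to 0.35, Grik4 -0.22 to 0.20 and Grik5 -0.26 to 0.75 within PBS mice at 2 weeks. The range was Grik5 -0.50 to 0.061 within KA mice at 2 weeks. The ranges were Gria2 -0.093 to 0.057, Grik1 -0.28 to 0.19, Grik2 -0.55 to 0.0045 and Grik3 -0.20 to 0.39 within KA mice at 24 hours. They were Gria3 -0.036 to 0.13, Gria4 -0.15 to 0.30, Grik2 -0.23 to 0.18 and Grik3 -0.20 to 0.26 in the ratio of KA over PBS mice. The input comparison at 24 hours could not be run without its single PBS library. Grik4 was the member with the fewest counts, 24 in 1 library, and how far depth limited its comparisons was not tested.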
